A study of Mus musculus with 16 samples.

Results

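The 30 genes described here encode the peroxisomal machinery that oxidizes fatty acids and the proteins that build the organelle, measured in mouse liver with and without Cpt1a. They were taken by exact gene symbol from the 25803 genes counted in the series, and comprise 13 oxidation enzymes, 13 peroxins (the assembly proteins encoded by Pex genes), 2 membrane transporters and 2 enzymes of ether lipid synthesis. Poly-A RNA was sequenced in bulk from the livers of male mice, all fed a high-fat diet for 12 weeks. Livers of the genotype control and of a Cpt1a liver knockout (LKO) were taken at the end of a 16 h fast or once fasted mice had been refed for 6 h. The 4 groups are therefore fasted control, fasted LKO, refed control and refed LKO, with 4 libraries in each. All 4 groups share the sex, the diet and the fast. The age and strain of the mice, and the Cre line, promoter or vector behind the knockout, are not given in the labels, nor is what the control animals carry. Nothing in the labels says that the libraries of a group come from separate animals, so the p-values below measure the spread between these samples.

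Peroxisomes shorten fatty acids that mitochondria handle poorly, such as very long, branched and dicarboxylic chains, and in liver they also trim the side chain of bile acid precursors. Acyl-CoA esters enter through ABC half-transporters and pass through an oxidase, a bifunctional hydratase and dehydrogenase, and a thiolase. Phytanic acid first loses its terminal carbon by alpha-oxidation. Matrix enzymes carry targeting signals that are read by import receptors and delivered through a docking complex, while other peroxins insert membrane proteins or elongate and divide the organelle. Many of these genes in rodent liver are known targets of the fatty acid receptor PPARA, which binds a direct repeat of AGGTCA half-sites together with RXRA.

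Library totals ran from 14721601 to 24618230 counts. Levels below are CPM, counts per M (mega) counts after scaling by library totals and TMM factors. Libraries carry the names of the count columns, with S40 to S43 for fasted control liver and S44 to S47 for fasted LKO liver. Refed control liver gave S48 to S51, and refed LKO liver gave S52 to S55. Values are listed in that order. Cpt1a averaged 487 ± 83.2 CPM in fasted control and 101 ± 17.3 CPM in fasted LKO (SD, n = 4; exact two-sided permutation p = 0.0286, the smallest that 4 against 4 libraries allow). In the refed state it averaged 457 ± 137 and 54.2 ± 16.6 CPM (exact permutation p = 0.0286). The summed level of 8 hepatocyte markers ranged from 40528 to 43155 CPM in fasted control and from 30098 to 40024 CPM in fasted LKO. By the test used below, 4 of the 8 were lower and 1 higher, against 6.48% and 5.75% of all genes. In the refed groups the summed hepatocyte level ranged from 34726 to 38523 and from 31349 to 34594 CPM. There edgeR called 0 of 8, against 3.63% of all genes (1 of 8 at an unadjusted p under 0.05). Summed lymphocyte markers were higher in both LKO groups (10.9 to 31.0 against 2.65 to 4.92 CPM fasted, and 14.5 to 36.0 against 2.19 to 3.96 CPM refed). Jchain held most of that sum, with a mean of 18.4 of 21.3 CPM in fasted LKO and 23.8 of 27.0 CPM in refed LKO. Jchain was called higher by edgeR in both states, Cd3e and Cd79a in neither, and Ms4a1 was not tested. Of the 4 adipocyte markers, Adipoq, Plin1 and Lep were at or under 0.497 CPM in all libraries. In fasted control Cfd carried nearly the whole sum (9.81 to 58.1 CPM). In fasted LKO the sum was 0.448 to 9.63 CPM, with Cfd at 0.749, 2.38, 0.336 and 9.51 CPM. The fasted LKO library S44 stood apart in the bile duct keratin Krt19, at 29.0 CPM against at most 2.22 CPM in the other 15 libraries. Red cell markers summed to 123 to 167 CPM in fasted control and 60.7 to 88.7 CPM in fasted LKO, while the sums of stellate, endothelial, macrophage and bile duct markers overlapped between genotypes in both states. The part of these marker differences in the results was not tested. In bulk tissue, fewer cells of a type and less RNA per cell cannot be told apart.

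Levels per length differed widely among the 30 genes. In fasted control liver, CPM per kb of gene length ran among the oxidation enzymes from 2.86 for Acox3, which oxidizes branched acyl-CoAs, to 1830.0 for Acaa1b, a ketoacyl-CoA thiolase, with a median of 141. Among the peroxins it ran from 2.89 for Pex10, a RING subunit of the import ubiquitin ligase, to 97.7 for Pex16, a membrane protein that recruits Pex3, with a median of 13.8. The half-transporter Abcd3 stood at 66.8 CPM per kb and Abcd2 at 3.52 CPM per kb. Of the enzymes that start ether lipid synthesis, Gnpat stood at 13.7 and Agps at 0.746 CPM per kb. The enzymes together made up 1.22% ± 0.0967 of all CPM in fasted control, and the peroxins together 1329.6 ± 59.7 CPM (SD, n = 4). All 30 genes passed the filter on low counts.

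The promoters of the genes that carry the main differences are shown for reference, from 250 bases before to 50 after the transcription start in RefSeq on GRCm38.p6, a build older than the mm39 that the submitters' processing notes name. Ehhadh and Pex11a had the largest rise of their class in fasted LKO liver, and Acaa1a and Acaa1b are a paralog pair that encode the thiolase. Capitals mark GC boxes (GGGCGG, or CCGCCC for the opposite strand) and CCAAT boxes (CCAAT, or ATTGG for the opposite strand). The windows are chr16:21787785-21788084 (minus strand) for Ehhadh, chr7:79743082-79743381 (minus) for Pex11a, chr9:119157044-119157343 (minus) for Acaa1b and chr9:119341044-119341343 (plus) for Acaa1a.
Ehhadh: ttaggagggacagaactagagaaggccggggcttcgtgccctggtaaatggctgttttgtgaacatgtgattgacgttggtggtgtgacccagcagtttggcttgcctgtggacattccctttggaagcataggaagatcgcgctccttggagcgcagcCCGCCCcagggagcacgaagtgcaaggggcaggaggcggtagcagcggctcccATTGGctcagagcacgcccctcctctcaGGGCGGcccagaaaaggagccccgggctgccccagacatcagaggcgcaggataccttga
Pex11a: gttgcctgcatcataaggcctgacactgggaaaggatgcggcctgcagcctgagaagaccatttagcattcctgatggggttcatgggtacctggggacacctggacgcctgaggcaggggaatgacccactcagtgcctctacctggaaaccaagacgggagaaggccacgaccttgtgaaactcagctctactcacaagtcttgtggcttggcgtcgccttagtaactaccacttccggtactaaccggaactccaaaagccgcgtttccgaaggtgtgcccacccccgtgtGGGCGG
Acaa1b: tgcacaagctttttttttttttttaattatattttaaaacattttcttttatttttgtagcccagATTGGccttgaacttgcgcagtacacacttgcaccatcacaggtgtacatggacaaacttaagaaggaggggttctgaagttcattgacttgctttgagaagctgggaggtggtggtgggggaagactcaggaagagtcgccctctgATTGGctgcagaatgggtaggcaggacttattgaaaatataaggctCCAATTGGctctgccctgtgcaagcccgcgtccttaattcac
Acaa1a: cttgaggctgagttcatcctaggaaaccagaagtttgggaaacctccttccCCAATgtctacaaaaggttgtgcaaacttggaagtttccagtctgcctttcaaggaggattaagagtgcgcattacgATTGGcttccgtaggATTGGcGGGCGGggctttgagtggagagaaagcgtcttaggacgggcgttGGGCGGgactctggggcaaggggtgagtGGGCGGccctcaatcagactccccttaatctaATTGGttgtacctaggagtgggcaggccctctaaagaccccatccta

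The Ehhadh window holds 2 GC boxes and 1 CCAAT box, and the Pex11a window 1 GC box and no CCAAT box. The thiolase pair differed more: Acaa1a has 3 GC boxes and 10 CpG dinucleotides, Acaa1b has 0 GC boxes and 4 CpG, and each has 4 CCAAT boxes. RefSeq windows were matched for 25 of the 30 genes, giving 30 windows in all because some genes have several starts. A GC box on either strand occurred in 20 of these 30 windows (66.7%, against 35.7% of all 32851 windows), and a CCAAT box in 12 of 30 (40%, against 37.4%). The 30 windows were also richer in G and C, with medians of 15.5 CpG and 57.67% GC, against 7 CpG and 52.67% over all windows. The half-site AGGTCA occurred in 3 of 30 (10%, against 16.3%). The direct repeat AGGTCANAGGTCA, allowing 2 mismatches on either strand, occurred in 1 of the 30 windows (3.33%, against 3.86% of all). That match lies in the window of Acox2, the branched-chain and bile acid intermediate oxidase, at chr14:8258790-8259089, and reads AGGaCAgAGGTgA, with capitals marking letters equal to the motif. Overlaps between the half-site and the repeat were allowed. No match was found in the windows of Ehhadh, Pex11a or the thiolases, which says only that these letters are not in those bases.

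In the fasted state, loss of Cpt1a was accompanied by a rise of 6 and a fall of 2 of the 30 genes (edgeR quasi-likelihood test, LKO over control, adjusted p under 0.05 over all 14488 genes tested). That is read against 12.2% of all genes called in this contrast, 5.75% higher and 6.48% lower. Ehhadh, the bifunctional enzyme for straight chains, rose most, and the division factor Pex11a rose next. Hsd17b4, Decr2, Abcd3 and Pex19 rose by smaller amounts, and Pecr and Pex11g fell. The count was 9 higher and 3 lower with DESeq2, 6 and 3 with limma-voom, 10 and 2 with upper quartile scaling, and 10 and 3 when genes under a mean of 5 CPM were dropped. Over all genes these settings called, in that order, 976 higher and 1164 lower, 804 and 1006, 994 and 861, and 881 and 935. The last is out of 9344 genes and the others out of 14488. The 4 LKO libraries all lay above the 4 controls for 9 members and all below for 2, against 8.3% and 8.57% of all genes.

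**Figure D1:**
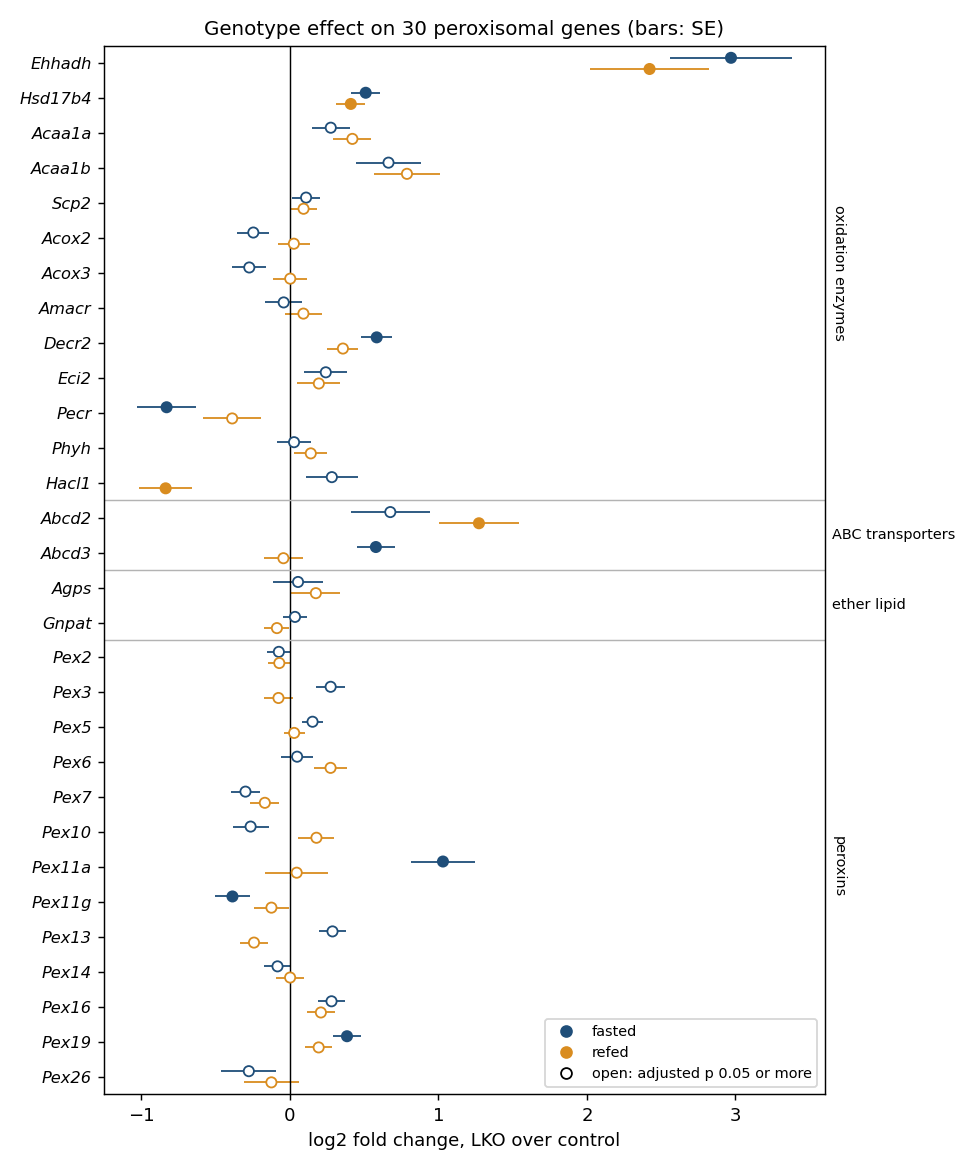
Log2 fold change (LKO over control, x axis) of each of the 30 genes in the fasted (blue) and refed (orange) state, with bars for the standard error; filled points passed an edgeR adjusted p of 0.05. Ehhadh lies farthest to the right in both states, while Pex11a stands at 1.03 in the fasted and 0.05 in the refed state.

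Among the 13 oxidation enzymes, Ehhadh (chr16:21580037-21606557, minus strand, in the deposited mm39 coordinates) stood at 342, 404, 422 and 333 CPM in fasted control. In fasted LKO it stood at 4327, 1092, 4890.3 and 1445 CPM. The groups did not overlap, and within the LKO group S44 and S46 were far above S45 and S47. On the log2 scale it rose by 2.97 (SE 0.41, adjusted p = 3.93e-04), a 7.84-fold higher level, and by 2.72 without S44 (adjusted p = 0.00146). Its counterpart Hsd17b4, the bifunctional enzyme for branched chains and bile acid intermediates, averaged 573 ± 40.4 CPM in control and 817 ± 86.9 CPM in LKO, a rise of 0.51 on the log2 scale (SE 0.10, adjusted p = 0.00317). Per length, Ehhadh RNA was 0.746 ± 0.0498 times that of Hsd17b4 in fasted control and 3.95 ± 2.36 times in fasted LKO, where single libraries ran from 1.66 to 6.04.

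The thiolase genes Acaa1a and Acaa1b lie near each other on chromosome 9 and are close paralogs, so reads may be divided between them unevenly by the counting. Acaa1b stood at 3614, 3749, 3884 and 3115 CPM in fasted control and at 7452, 3669, 7498 and 4146 CPM in fasted LKO. As with Ehhadh, S44 and S46 were the high libraries, and S45 lay within the control range. The log2 difference of 0.66 (SE 0.22) did not pass the test (adjusted p = 0.0577), and it was 0.51 without S44 (adjusted p = 0.185), 0.82 without S45 (adjusted p = 0.0156) and 0.79 without S47 (adjusted p = 0.0297). With all libraries, Acaa1b passed with DESeq2 (adjusted p = 0.0215), with upper quartile scaling (0.0472) and with the 5 CPM filter (0.0439). Acaa1a stood at 751, 666, 656 and 605 CPM in control and 866, 717, 981 and 679 CPM in LKO, a log2 difference of 0.28 (SE 0.13, adjusted p = 0.175) with overlapping groups.

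Of 3 enzymes that process double bonds, Decr2 rose, Pecr fell and Eci2 did not pass the test. Decr2, the peroxisomal dienoyl-CoA reductase, stood at 349, 398, 399.5 and 350.4 CPM in control and 552, 516, 645 and 533 CPM in LKO. Its groups did not overlap, and it rose by 0.59 (SE 0.10, adjusted p = 0.0021). Pecr, an enoyl-CoA reductase linked to chain elongation, stood at 272, 284, 294 and 282 CPM in control and 103, 222, 138 and 174 CPM in LKO. Its groups did not overlap either, with S44 lowest and S45 nearest to control, and it fell by 0.83 on the log2 scale (SE 0.20, adjusted p = 0.0127; a fall of 0.67 without S44, adjusted p = 0.0372). Eci2, the enoyl-CoA isomerase, differed by 0.24 (SE 0.14, adjusted p = 0.306).

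The remaining enzymes did not pass the test in the fasted state. The branched-chain oxidases Acox2 and Acox3 differed by −0.25 and −0.27 (SE 0.11 and 0.12, adjusted p = 0.153 and 0.141), and passed it without S45 (Acox2, 0.0488) or S47 (Acox3, 0.0298). The racemase Amacr, which prepares branched acyl-CoAs for these oxidases, differed by −0.04 (95% interval −0.28 to 0.20). Scp2, whose gene yields both a thiolase for branched chains and the shorter sterol carrier protein, which gene counts do not separate, differed by 0.11 (95% interval −0.07 to 0.29). For alpha-oxidation, the hydroxylase Phyh differed by 0.03 (95% interval −0.19 to 0.25) and the lyase Hacl1 by 0.28 (95% interval −0.06 to 0.62).

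**Figure D2:**
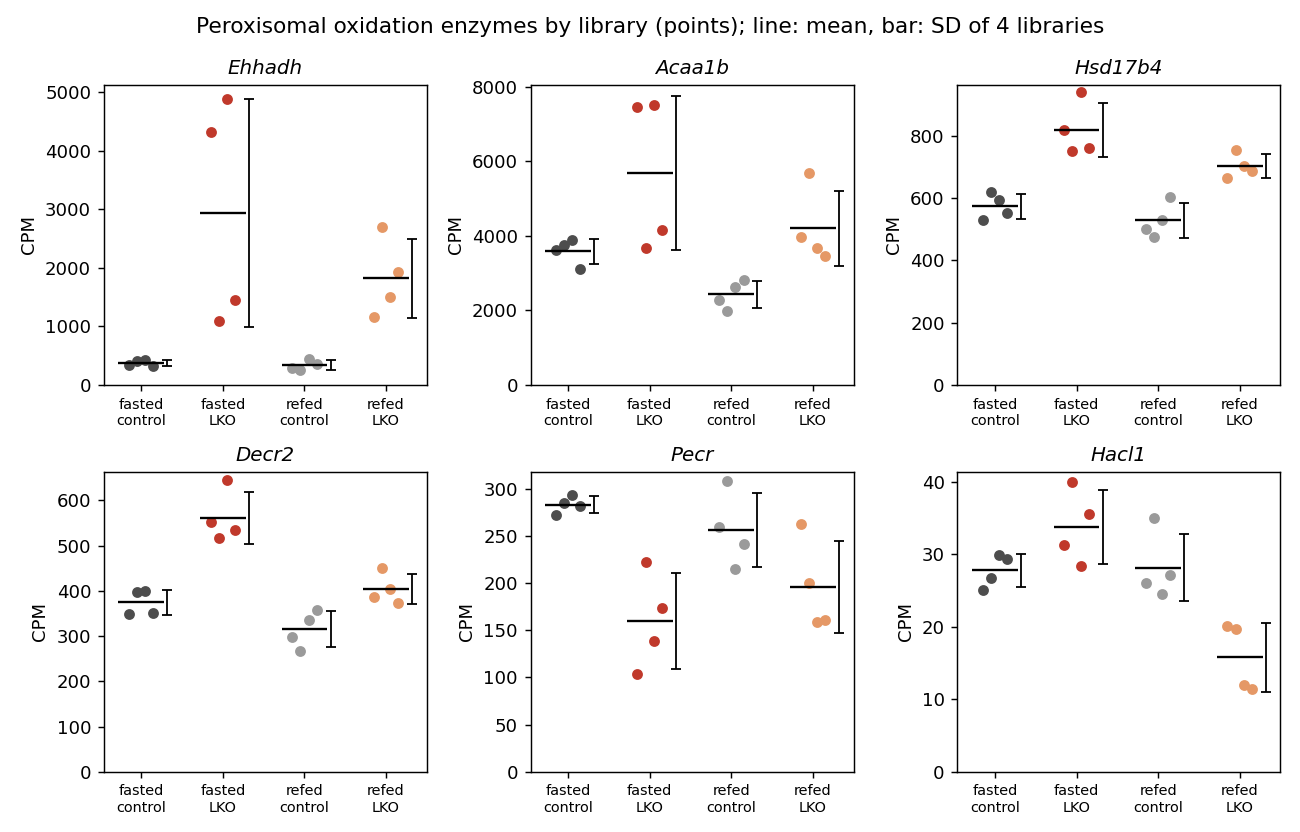
CPM (y axis, from 0) of 6 oxidation enzymes in the 4 groups (x axis); points are libraries, lines the group mean and bars the SD of 4 libraries. Ehhadh in fasted LKO splits into 2 libraries at 4327 and 4890.3 CPM and 2 at 1092 and 1445 CPM, and Hacl1 is lowest in refed LKO.

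Both half-transporters had higher values in fasted LKO liver, and Abcd3 passed the test. Abcd3, which is known to carry dicarboxylic and branched acyl-CoAs, stood at 369, 472, 487 and 433 CPM in control and 685, 554, 835 and 559.9 CPM in LKO. The groups did not overlap, and the rise was 0.58 (SE 0.13, adjusted p = 0.00861). Abcd2, a carrier of very long and polyunsaturated acyl-CoAs, averaged 20.9 ± 6.26 and 33.5 ± 10.1 CPM with overlapping groups (log2 difference 0.68, SE 0.27, adjusted p = 0.110). The ether lipid enzymes Agps and Gnpat differed by 0.06 and 0.04 (SE 0.17 and 0.08), with adjusted p of 0.873 and 0.837.

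Of the 13 peroxins, Pex11a and Pex19 rose and Pex11g fell in fasted LKO liver. Pex11a (chr7:79385705-79392879, minus strand), a membrane protein of peroxisome elongation and proliferation, stood at 195, 273, 253 and 198 CPM in control and 529, 454, 441 and 455 CPM in LKO. Every LKO library was above every control, S44 being the highest, and it rose by 1.03 on the log2 scale (SE 0.21, adjusted p = 0.00535; 0.97 without S44, adjusted p = 0.0197). Its paralog Pex11g stood at 39.5, 37.3, 42.5 and 40.03 CPM in control and 24.3, 34.7, 33.2 and 29.8 CPM in LKO. It fell by 0.39 on the log2 scale (SE 0.12, adjusted p = 0.0441), with no overlap, but the call was lost when any 1 of S40 to S44, S46 or S47 was left out (adjusted p up to 0.138, reached without S44), without a filter (0.0566) and with only the fasted groups fitted (0.0568). Per length, Pex11a RNA was 6.18 ± 1.19 times that of Pex11g in fasted control and 16.9 ± 4.34 times in fasted LKO.

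The 3 genes of membrane protein insertion all had higher values in fasted LKO without overlap of the groups, and 1 of them passed the test. Pex19, the soluble chaperone and receptor for membrane proteins, stood at 197, 192, 209.8 and 182 CPM in control and 264, 249, 274 and 233 CPM in LKO, a rise of 0.39 (SE 0.09, adjusted p = 0.0131). Its membrane anchor Pex3 differed by 0.28 (SE 0.10, adjusted p = 0.0718) and Pex16 by 0.28 (SE 0.09, adjusted p = 0.0596). Of the docking pair, Pex13 differed by 0.29 without overlap (SE 0.09, adjusted p = 0.0546) and Pex14 by −0.08 with overlap (SE 0.09, adjusted p = 0.622). The import receptor Pex5, which reads the C-terminal signal of most matrix enzymes, differed by 0.15 (SE 0.07, adjusted p = 0.170). Pex7, which reads the N-terminal signal carried by thiolase, Phyh and Agps, differed by −0.30 (SE 0.10, adjusted p = 0.0550). The ubiquitin ligase subunits Pex2 and Pex10 differed by −0.07 and −0.26, the ATPase Pex6 by 0.05 and its membrane anchor Pex26 by −0.28, with adjusted p of 0.593, 0.176, 0.822 and 0.373. Leaving out 1 library brought Pex7 under the threshold without S40, S45 or S47 (adjusted p = 0.0379, 0.0213 and 0.0467) and Pex16 without S47 (0.0455). With all libraries, Pex13 and Pex16 passed with DESeq2 (0.0382 and 0.0334), upper quartile scaling (0.0317 and 0.0473) and the 5 CPM filter (0.0320 and 0.0425). Pex3 passed with that scaling and that filter (0.0432 and 0.0449), and Pex7 with DESeq2, limma-voom and that filter (0.0307, 0.0487 and 0.0394).

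**Figure D3:**
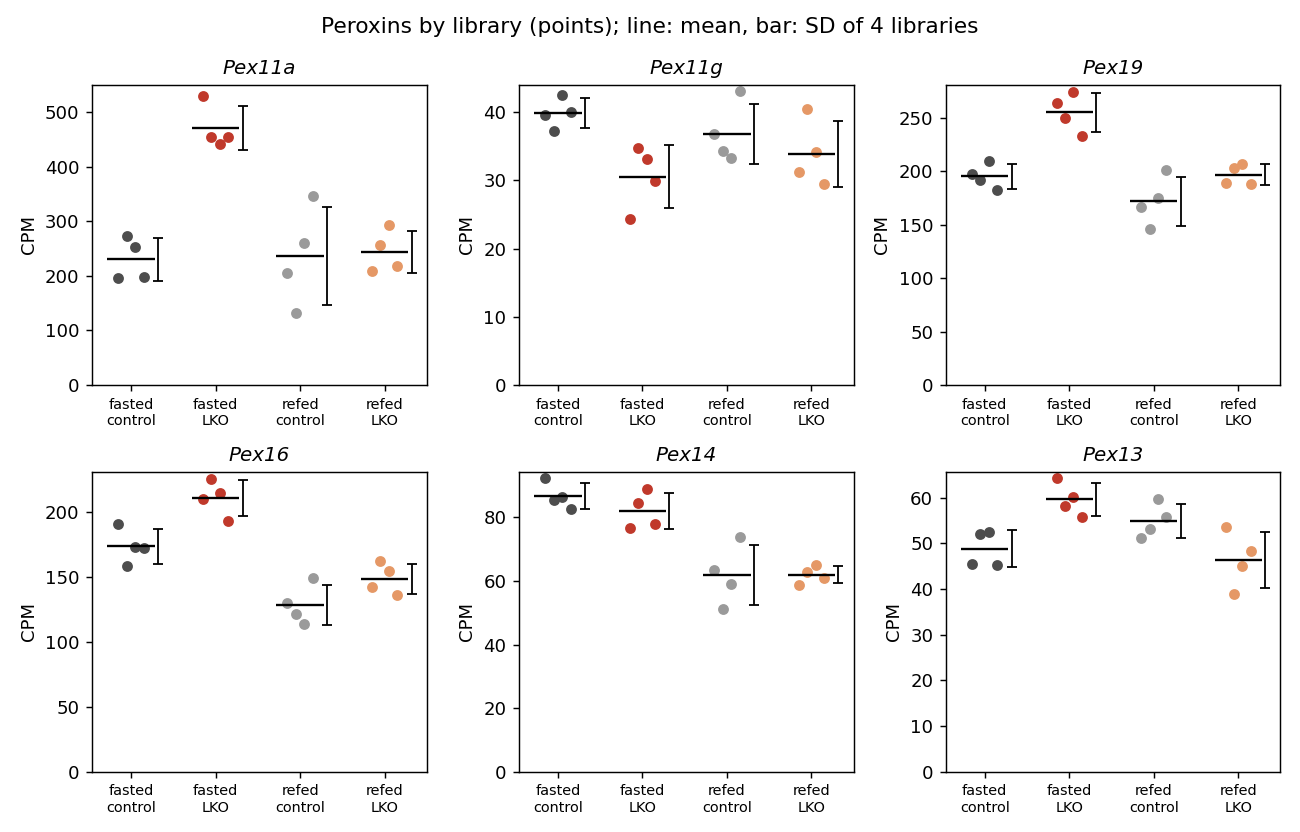
CPM (y axis, from 0) of 6 peroxins in the 4 groups (x axis); points are libraries, lines the group mean and bars the SD of 4 libraries. Pex11a lies between 441 and 529 CPM in fasted LKO and at or below 346 CPM in all other libraries, while Pex14 is lower in both refed groups.

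As classes, 4 of 13 enzymes (3 higher, 1 lower) and 3 of 13 peroxins (2 higher, 1 lower) were called by edgeR in the fasted state. DESeq2 called 5 enzymes (4 higher, 1 lower) and 6 peroxins (4 higher, 2 lower), and edgeR with upper quartile scaling called 5 enzymes (4 higher, 1 lower) and 6 peroxins (5 higher, 1 lower). Which class had more called members thus turned with the tool and the scaling. The median log2 fold change was 0.24 over the enzymes, 0.05 over the peroxins and 0.02 over all genes tested. The enzyme median exceeded the peroxin median by 0.193, and by 0.0869 to 0.234 when single libraries were left out; it is a description with no test. The summed enzyme level was 12239 ± 967 CPM in fasted control and 17701 ± 4512 CPM in fasted LKO. Leaving out Ehhadh and Acaa1b, the sums were 8274 ± 598 and 9071 ± 837 CPM. For the peroxins, the sum was 1329.6 ± 59.7 CPM in control and 1666 ± 80.7 CPM in LKO, and 1099.7 ± 33.7 and 1196 ± 73.1 CPM without Pex11a. Ehhadh and Acaa1b held most of the difference in the enzyme sum, and Pex11a most of that in the peroxin sum.

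In the refed state, 3 of the 30 genes rose and 1 fell in LKO liver (edgeR), against 3.63% of all genes called, 2.28% higher and 1.35% lower. Ehhadh and Hsd17b4 were again higher, Abcd2 rose, Hacl1 fell, and no peroxin was called. The LKO libraries all lay above control for 7 members and all below for 1, against 6.7% and 5.03% of all genes. Of the 10 members called in the fasted or the refed genotype comparison, 2 were called in both. Leaving out 1 library gave 1 to 5 called members, with 2 called without S48, 2 without S54 and 1 without S55. Over all genes these fits called 134 higher and 63 lower, 215 and 78, and 166 and 59, in that order. With all libraries the all-gene calls were 330 higher and 196 lower.

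Ehhadh stood at 291, 259, 441 and 367 CPM in the refed control group and 1153, 2702, 1496 and 1923 CPM in refed LKO. All LKO libraries were above all controls, S53 being the highest, and the rise on the log2 scale was 2.42 (SE 0.40, adjusted p = 0.00376). Hsd17b4 stood at 501, 475, 530.0 and 605 CPM in control and 663, 754, 703 and 687 CPM in LKO, without overlap. It rose by 0.41 (SE 0.10, adjusted p = 0.0283), a call lost without any 1 of S48, S49, S50, S53, S54 or S55 (adjusted p up to 0.0915, reached without S48). Hacl1 (chr14:31320687-31363243, minus strand), the lyase that cleaves the hydroxylated acyl-CoA in alpha-oxidation, stood at 26.1, 34.9, 24.5 and 27.1 CPM in control and 20.2, 19.6, 12.0 and 11.4 CPM in LKO. Its groups did not overlap, S54 and S55 being the lowest, and it fell by 0.84 on the log2 scale (SE 0.18, adjusted p = 0.0165), with adjusted p of 0.0521 without S54, 0.0580 without S55 and 0.0566 with only the refed groups fitted. Phyh, the step before Hacl1, differed by 0.14 (95% interval −0.08 to 0.36).

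Abcd2 stood at 12.3, 9.24, 18.2 and 16.6 CPM in the refed control group and 26.5, 28.5, 32.8 and 48.4 CPM in refed LKO. The groups did not overlap, S55 being the highest, and the rise was 1.27 (SE 0.27, adjusted p = 0.0168). It was 1.21 without S48 and 1.05 without S55, with adjusted p of 0.0617 and 0.0665. Abcd3 averaged 525 ± 58.1 and 509 ± 29.7 CPM, a log2 difference of −0.04 (95% interval −0.30 to 0.21). Whether the effect on each transporter differed between the states was tested as the interaction below.

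Both thiolase genes and Decr2 had higher values in refed LKO without overlap of the groups, yet outside the threshold. Acaa1b stood at 2289, 1982, 2638 and 2818 CPM in control and 3959, 5696, 3678 and 3471 CPM in LKO, a log2 difference of 0.79 (SE 0.22, adjusted p = 0.0556). Acaa1a stood at 494, 491, 441 and 546 CPM and 592, 806, 632 and 611 CPM, a log2 difference of 0.42 (SE 0.13, adjusted p = 0.0759). Decr2 averaged 315 ± 40.1 and 404 ± 33.5 CPM, a log2 difference of 0.36 (SE 0.10, adjusted p = 0.0658; 0.0452 without S51). With DESeq2 these 3 were called (adjusted p = 0.00891, 0.0274 and 0.0178), and edgeR called Acaa1b without a filter (0.0436) or with only the refed groups fitted (0.0381) and Decr2 with the 5 CPM filter (0.0497). Per length, Acaa1b RNA was 11.1 ± 1.85 times that of Acaa1a in refed control and 14.2 ± 1.51 times in refed LKO, and 12.1 ± 1.11 and 15.5 ± 3.499 times in the fasted groups.

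For the peroxins, 0 of 13 passed the edgeR test in the refed state, 2 had higher and 1 had lower values at an unadjusted p under 0.05, and DESeq2 and limma-voom also called 0. Pex11a stood at 206, 132, 261 and 346 CPM in control and 209, 256, 292 and 218 CPM in LKO, with the LKO values inside the control range. Its log2 difference was 0.05, with a 95% interval from −0.37 to 0.46. Pex6 was higher without overlap (153 ± 7.92 against 186 ± 12.6 CPM, log2 difference 0.27, adjusted p = 0.180), and Pex13 averaged 54.9 ± 3.67 and 46.5 ± 6.15 CPM (−0.24, adjusted p = 0.170). The authors' deposited table did call Pex6 higher in refed LKO (adjusted p there 0.0225). The median log2 fold change was 0.14 over the 13 enzymes, 0.00 over the 13 peroxins and −0.01 over all genes. The enzymes summed to 10320 ± 726 CPM in the refed control group and 14390 ± 2128 CPM in refed LKO, and to 7549 ± 446 and 8370 ± 563 CPM without Ehhadh and Acaa1b.

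**Figure D4:**
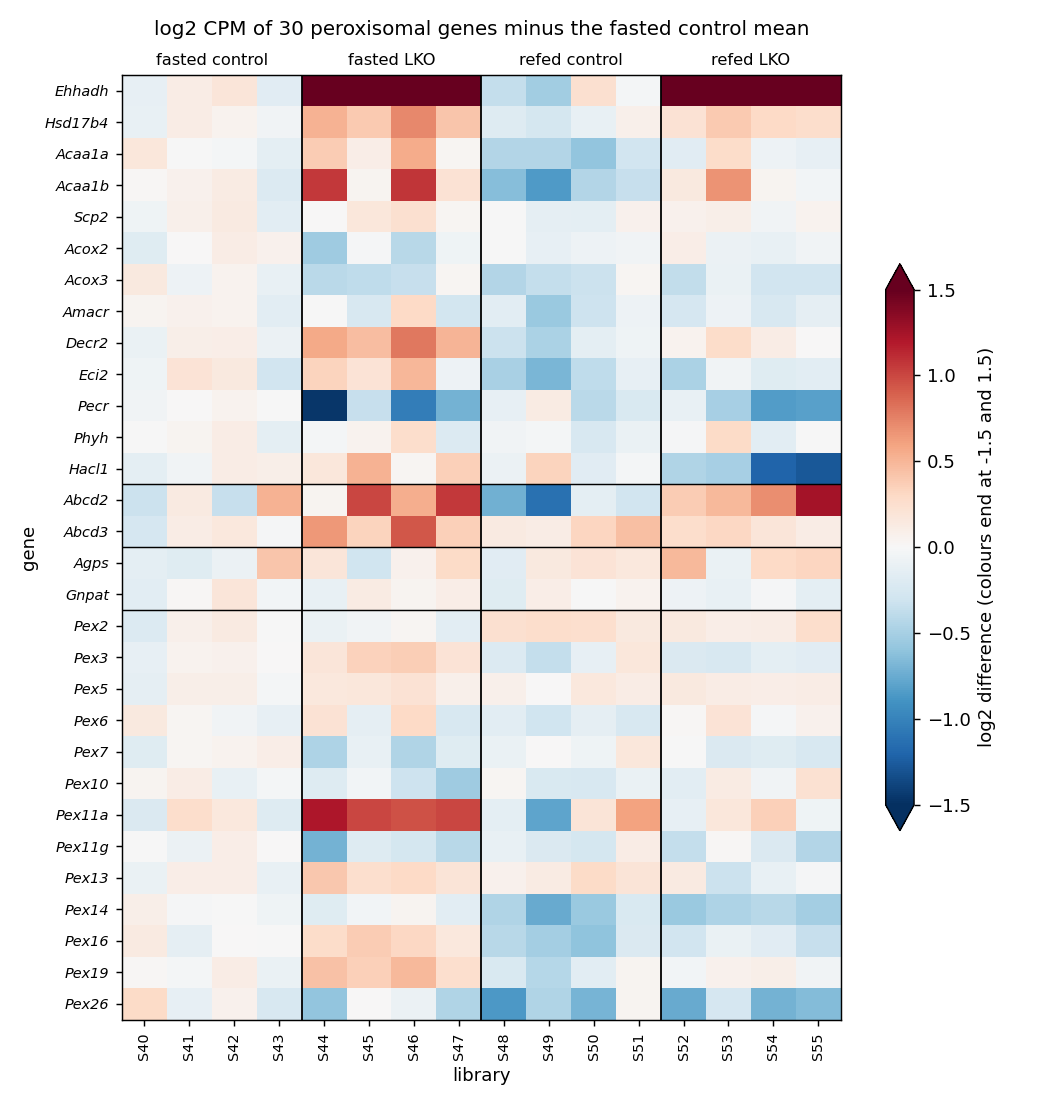
Log2 CPM of each of the 30 genes (rows) in each of the 16 libraries (columns) minus the fasted control mean; colours end at ±1.5. Ehhadh is high in all 8 LKO libraries, Pex11a in the 4 fasted LKO libraries, and Hacl1 is low in the 4 refed LKO libraries.

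The difference between the 2 genotype effects (refed minus fasted) was tested directly as an interaction, and edgeR called 0 of the 30 members, against 0.538% of all genes (0.311% positive, 0.228% negative). At an unadjusted p under 0.05 there were 6 members, 1 positive and 5 negative. DESeq2 called 4 (Hacl1, Abcd3, Pex11a and Pex13) and limma-voom 1 (Hacl1), all negative. Over all 14488 genes, DESeq2 called 261 positive and 197 negative, and limma-voom 48 and 32. Hacl1, higher by 0.28 in fasted and lower by 0.84 in refed LKO liver, had an interaction of −1.12 (SE 0.25, adjusted p = 0.0529 with edgeR, 0.00337 with DESeq2). The edgeR value was 0.0473 without S49 and 0.0472 without S52. Pex11a had an interaction of −0.98 (SE 0.30, adjusted p = 0.123; 0.0331 without S49), Abcd3 of −0.62 (SE 0.18, adjusted p = 0.110) and Pex13 of −0.53 (SE 0.13, adjusted p = 0.0705). For Ehhadh it was −0.55 (95% interval −1.60 to 0.51) and for Abcd2 0.60 (95% interval −0.14 to 1.33). Over all genes the interaction called 45 higher and 33 lower, and 43 higher and 65 lower with upper quartile scaling.

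Refeeding of control mice lowered 3 of the 30 genes and raised 0 (edgeR, refed over fasted), against 15.4% of all genes called, 7.79% higher and 7.65% lower. At an unadjusted p under 0.05, 1 member had higher values. DESeq2, limma-voom and edgeR with upper quartile scaling each called 1 higher, Pex2, and with that scaling the split was 1 higher and 3 lower. Pex14, the docking protein, stood at 92.4, 85.6, 86.5 and 82.8 CPM in fasted control and 63.5, 51.2, 59.0 and 73.8 CPM in refed control. These groups did not overlap, and it fell by 0.49 on the log2 scale (SE 0.09, adjusted p = 0.00309). Pex16 fell by 0.43 (SE 0.09, adjusted p = 0.00651), from 173 ± 13.3 to 129 ± 15.3 CPM. Acaa1a fell by 0.44 (SE 0.13, adjusted p = 0.0275), without overlap between the library values given above. The call for Acaa1a was lost without S40, S48, S49 or S50 (adjusted p up to 0.0939, reached without S40). Without S51, 6 members were called, all lower, with Eci2, Acox3 and Pex26 added. That fit called 1199 higher and 1284 lower over all genes, against 1129 and 1109 with all libraries. Pex2 was called higher without S42 and Eci2 lower without S43. Acaa1b was called lower with DESeq2 (0.0499) and with only the control groups fitted (0.0159). With all libraries, Eci2 was called lower with DESeq2 (0.0318) and with the 5 CPM filter (0.0406). That filter also called Pex2 higher (0.0372).

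In LKO mice, refeeding lowered 9 of the 30 genes and raised 1 (edgeR), against 18.1% of all genes called, 9.28% higher and 8.78% lower. The falls were in 6 of 13 peroxins and 3 of 13 enzymes. Pex11a fell by 0.95 on the log2 scale (SE 0.21, adjusted p = 0.00575), from the 441 to 529 CPM of fasted LKO to 209 to 292 CPM. Hacl1 stood at 31.2, 39.9, 28.4 and 35.6 CPM in fasted LKO, above all the refed LKO libraries, and fell by 1.10 (SE 0.18, adjusted p = 5.58e-04). In control liver the refeeding differences were 0.04 for Pex11a (95% interval −0.38 to 0.45) and 0.02 for Hacl1 (95% interval −0.32 to 0.36), and the edgeR test of the difference between genotypes is the interaction given above.

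The other peroxins lowered by refeeding in LKO liver were the insertion factors Pex3, Pex16 and Pex19 and the docking pair Pex13 and Pex14. They fell by 0.47, 0.50, 0.37, 0.36 and 0.40 on the log2 scale (SE 0.09 to 0.10), with adjusted p of 0.00321, 0.00155, 0.0101, 0.0138 and 0.00648, and the fasted and refed libraries did not overlap for any of the 5 (9.95% of all genes were lower without overlap). Pex2 rose by 0.23 (SE 0.08, adjusted p = 0.0492), a call lost when any 1 of S44, S45, S47, S52, S53, S54 or S55 was left out (adjusted p up to 0.150, reached without S55), with upper quartile scaling (0.0604), without a filter (0.112) and with only the LKO groups fitted (0.0632). Among the enzymes, Decr2 fell by 0.48 (SE 0.10, adjusted p = 0.0048). Eci2 fell by 0.47 (SE 0.14, adjusted p = 0.0336), with overlapping groups, a call lost without any 1 of S44, S45, S46, S52, S54 or S55 (adjusted p up to 0.113, reached without S52) or with only the LKO groups fitted (0.0503). Ehhadh differed by −0.69 (SE 0.38, adjusted p = 0.234). Abcd3 differed by −0.37 without overlap (SE 0.13, adjusted p = 0.0577; 0.0328 without S45, 0.0352 without S47). Pex10 was called higher without S45 and Acaa1a lower without S53. The median log2 change on refeeding was −0.32 over the peroxins and −0.22 over the enzymes in LKO liver, −0.12 and −0.15 in control liver, and within 0.02 of 0 over all genes in both genotypes.

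**Figure D5:**
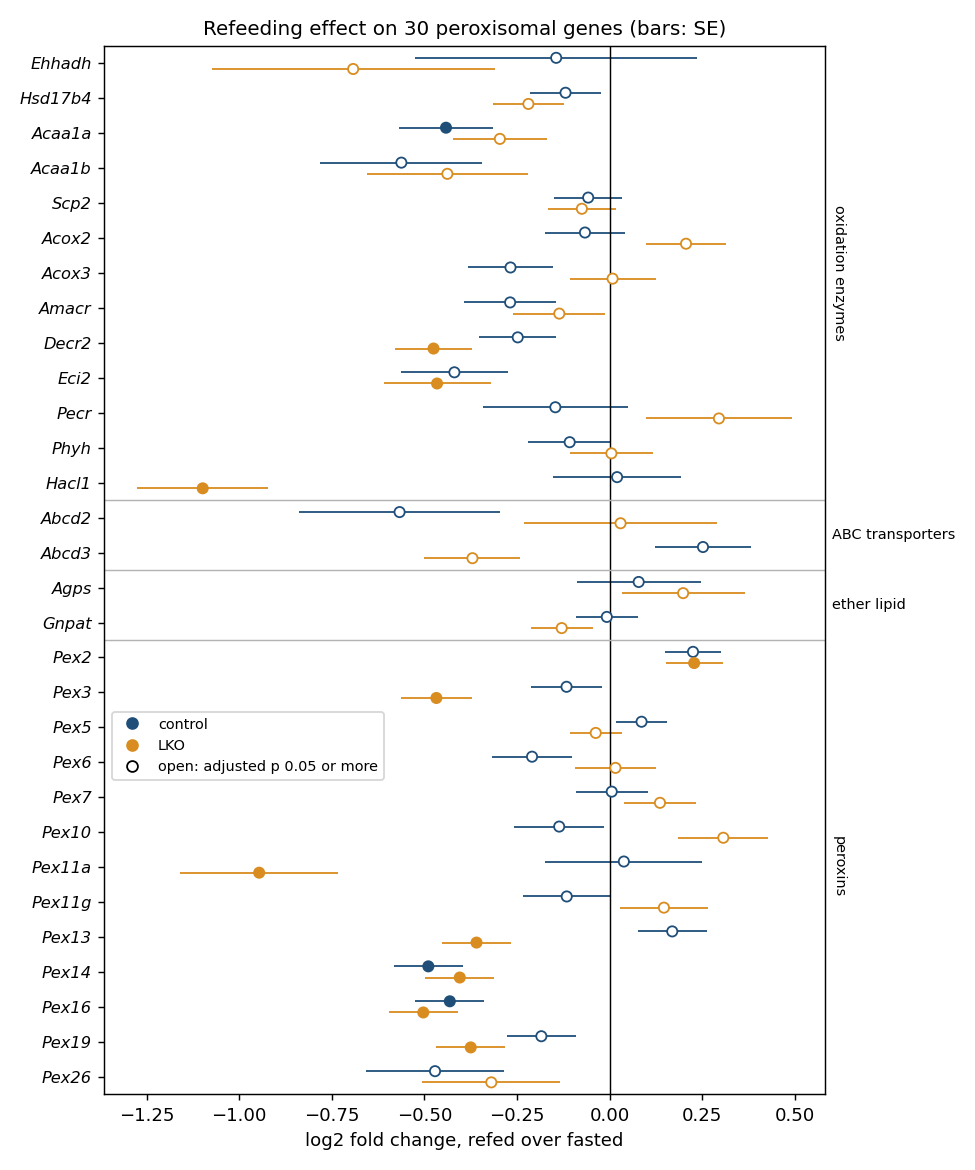
Log2 fold change on refeeding (refed over fasted, x axis) of each of the 30 genes in control (blue) and LKO (orange) liver, with bars for the standard error; filled points passed an edgeR adjusted p of 0.05. The filled points lie left of 0 apart from Pex2 in LKO liver, and Hacl1 and Pex11a are the farthest left.

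Libraries of a group also differed in their class medians. As the median over the 13 enzymes of log2 CPM minus the fasted control mean, S46 stood at 0.30, S44 at 0.17, S45 at 0.10 and S47 at 0.03 in fasted LKO. Over the peroxins the same libraries stood at 0.22, 0.15, 0.01 and −0.15. In refed control S49 was the lowest, at −0.36 over the enzymes and −0.30 over the peroxins, and S51 the highest, at −0.06 and 0.11. Within the fasted LKO group the highest library exceeded the lowest 4.48-fold for Ehhadh, 2.15-fold for Pecr and 2.04-fold for Acaa1b, and between 1.11-fold (Pex5) and 2.03-fold (Abcd2) for the other members. Ehhadh and Acaa1b were high, and Pecr low, in both S44 and S46. The order of the libraries was not shared by all enzymes: in fasted LKO the lowest library was S44 for 4 enzymes, S45 for 4, S47 for 4 and S46 for 1.

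A list of 30 other peroxisomal genes was examined beside the members. In fasted LKO liver 8 of 30 rose and 6 fell, against 5.75% and 6.48% of all genes. The largest rises were Acot4, a thioesterase (0.93, SE 0.18, adjusted p = 0.00305), Crot, which makes acylcarnitines for export from the organelle (0.91, SE 0.18, adjusted p = 0.00403), and the acyl-CoA synthetase Acsl1, also found on other membranes (0.73, SE 0.17, adjusted p = 0.0126). Hao2 was called lower but did not exceed 2.35 CPM in any library. Next were Nudt7, a CoA hydrolase (a fall of 0.81, SE 0.24, adjusted p = 0.0362), and Pipox, the pipecolic acid oxidase (a fall of 0.64, SE 0.17, adjusted p = 0.0203). The Nudt7 call was lost without 5 of the 8 libraries taken 1 at a time (adjusted p up to 0.114, reached without S40) and the Pipox call without 2 (up to 0.0541, without S46). In refed LKO liver Acot8 and Ech1 were called higher (0.50 and 0.37, adjusted p = 0.0191 and 0.0366) and Hao2 lower, and these calls were lost without 3, 6 and 4 of the 8 libraries. Over all genes, 2.28% were called higher and 1.35% lower in that comparison. The list's median was 0.05 in the fasted and −0.03 in the refed genotype comparison, beside 0.13 and 0.07 over the 30 members.

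On refeeding, 5 of these 30 genes fell and 0 rose in control liver, and 8 fell and 2 rose in LKO liver. Over all genes, 7.65% fell and 7.79% rose in control liver, and 8.78% fell and 9.28% rose in LKO liver. Crot, Acsl1 and Acot4 fell most in LKO liver, by 0.996, 0.899 and 0.800 on the log2 scale (adjusted p = 0.00134, 0.00221 and 0.00466). Nudt7 and the CoA carrier Slc25a17 rose (0.92 and 0.49, adjusted p = 0.0148 and 0.0150). Acot4 was the 1 gene of the list called in the interaction, at −1.21 (SE 0.25, adjusted p = 0.0426), a call lost when any 1 of 12 of the 16 libraries was left out (adjusted p up to 0.0847, reached without S55).

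Among the regulators of this programme, Ncor1, a corepressor of nuclear receptors, rose in fasted LKO liver. It averaged 47.1 ± 6.89 and 71.4 ± 6.61 CPM (log2 fold change 0.60, SE 0.11, adjusted p = 0.00209). Ppara stood at 36.4, 60.6, 51.8 and 38.9 CPM in fasted control and 59.7, 58.6, 87.3 and 49.8 CPM in fasted LKO, with overlapping groups and a log2 difference of 0.45 (adjusted p = 0.161). In the refed state edgeR called 0 of the 8 regulators examined, against 3.63% of all genes, and 3 had an unadjusted p under 0.05.

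The authors' deposited table called 10, 8, 5 and 9 of the 30 genes in the fasted genotype, refed genotype, control refeeding and LKO refeeding comparisons. It shared 8 of the 8, 4 of the 4, 3 of the 3 and 9 of the 10 genes called here, each with the same sign. Acaa1b was called in the authors' deposited table but not by the edgeR test used here (other settings that call it are given above). Its adjusted p-values there were 0.0348 in the fasted, 2.81e-04 in the refed and 2.31e-04 (lower) in the control refeeding comparison. Also called there but not here were Pex16 (fasted, 0.0366), Acaa1a, Decr2 and Pex6 (refed, 0.0163, 0.0303 and 0.0225) and Eci2 (control refeeding, 0.0273). Across all 5 contrasts, 13 of the 30 genes were not called by the edgeR fit over all 16 libraries with filterByExpr and TMM scaling: Acaa1b, Scp2, Acox2, Acox3, Amacr, Phyh, Pex5, Pex6, Pex7, Pex10, Pex26, Agps and Gnpat. Of these, Acaa1b and Pex7 were called under other tools or settings with all libraries, and further members when 1 library was left out, as given above.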

How the data were processed

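Libraries were aligned with HISAT2 2.0.5 to mm39, per the submitters' processing notes, after poly-A selection and dUTP library construction, per the labels' protocols. The counting tool, its use of strand and the annotation are not given in the sources used here, so reads of overlapping or antisense genes cannot be told apart. The authors deposited 4 tables with raw counts per gene, 8 libraries in each. The authors' log2 fold changes, their p-values (no tool named) and gene lengths in bases are in the same deposited tables. Count columns carry no sample title and no replicate number, and each library's group came from the heading shared by the 2 tables that hold it. Another 64 per-library columns stayed unused.

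Joining by gene identifier gave 25803 genes, with 0 counts in conflict between tables. A gene absent from both tables of a library was set to 0, which touched 3148 genes and 0 of those tested. In R 4.3.3, edgeR 4.0.16 filtered genes (filterByExpr, 14488 kept), scaled libraries by TMM (factors 0.941 to 1.07) and fitted the 4 groups as 1 factor over all 16 libraries (biological coefficient of variation 0.185). Quasi-likelihood tests were made for 5 contrasts, with Benjamini-Hochberg adjustment over all genes tested and a threshold of 0.05. SE is the log2 fold change divided by the square root of F. Replicates correlated at 0.968 to 0.986 (Pearson's r across genes), and no 2 libraries of the same group agreed within sampling noise. Pairs across groups were not checked. The fit was also run on simulated counts with changes placed in the fasted LKO group only, and no result here rests on that run. Alternatives were upper quartile and RLE scaling, no filter, a filter at a mean of 5 CPM, DESeq2 1.42.0, limma-voom (limma 3.58.1), only the 2 groups compared, and leaving out each library. The members and lists were chosen with earlier results of these data known. The rule named any member, any regulator (1 is not reported here), Cpt1a, and of the 30 other peroxisomal genes at most the 3 largest called rises and falls of each contrast. Values in every library were given for the largest called change of each class and contrast and for Acaa1a and Acaa1b, and those of further members were added after their values were seen. Promoter sequences are from RefSeq (GRCm38.p6).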

Additional observations from a re-analysis of the deposited data

Results flagged for a closer look

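Of 124 sets of 4 libraries checked (the 30 members and Cpt1a in each group), 5 held 1 library whose gap to the nearest other exceeded Dixon's 95% critical share of the range, and chance alone gives about 1 in 20, or 6.2. Acox3 stood at 33.6 CPM in the fasted LKO library S47 against 24.8 to 25.8 CPM in the others (gap 0.884 of the range). Amacr was low in the fasted control library S43, at 225 CPM against 259 to 262 CPM (0.913). Pex11a was high in the fasted LKO library S44, at 529 CPM against 441 to 455 CPM (0.846), and without S44 its rise remained called, as given above. Agps was high in S43, at 9.27 CPM against 6.07 to 6.51 CPM (0.863), and low in the refed control library S48, at 6.13 CPM against at least 7.70 CPM (0.840).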

How the results depend on the processing

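No paired analysis was possible because the count columns carry no replicate numbers. The number of called members was 8 in the fasted genotype comparison and 13 when genes under a mean of 5 CPM were dropped. It was 4 in the refed genotype comparison and 7 with DESeq2, and 3 for control refeeding, 5 under that filter and 6 with DESeq2. For the interaction it was 0, and 1 with upper quartile scaling, 1 without a filter, 2 under the 5 CPM filter, 4 with DESeq2 and 1 with limma-voom. The calls over all genes moved as well. DESeq2 called 556 higher and 368 lower in the refed comparison, and 1268 and 1317 for control refeeding. The 5 CPM filter called 1129 and 1134 of its 9344 genes for control refeeding, and 98 and 99 in the interaction. Leaving out 1 library at a time gave 7 to 11 called members (fasted), 1 to 5 (refed), 2 to 6 (control refeeding), 8 to 10 (LKO refeeding) and 0 to 2 (interaction). All-gene calls in such fits ran from 487 higher and 561 lower without S44 to 903 and 1082 without S45 (fasted). They were 134 and 63 without S48 and 338 and 179 without S51 (refed). For control refeeding they were 595 and 625 without S40 and 1199 and 1284 without S51. For LKO refeeding they were 933 and 862 without S52 and 1311 and 1137 without S45. For the interaction they were 4 and 4 without S48 and 130 and 152 without S49. The enzyme median minus the peroxin median ranged from 0.0869 to 0.234 (fasted) and from 0.0759 to 0.240 (refed), and the log2 fold change of Cpt1a from −2.40 to −2.21 and from −3.27 to −2.89. Over all alternatives, 2358 single-gene results of the members kept their side of the threshold, 61 gained a call and 41 lost one. No called member changed sign, and 77 of 2085 values of uncalled members did. With 4 libraries a group, small differences lay near the threshold, and the lowest genes, such as Agps and Pex10 at 11.2 CPM or less, rest on few counts.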
